A study of Homo sapiens with 6 samples.

Results

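Fibronectin, tenascin C, the thrombospondins, the fibulins and related glycoproteins of the extracellular matrix were examined in U2OS cells, an established human osteosarcoma line, after silencing of squalene epoxidase (SQLE), an enzyme of cholesterol synthesis. The set held 10 of the 19937 genes in the table: FN1, TNC, THBS1, THBS2, THBS3, VCAN, FBN1, FBLN1, EFEMP1 and NID1. The genes were named by function, as adhesive and matricellular glycoproteins, but they were selected on the measured values in the sense that the difference between the groups was already known. They were part of the fit over all genes, but their counts, fold changes, ranks and calls are given as a description, with no p-value, and support nothing. VCAN encodes a proteoglycan and FBN1 a fibrillin, so that the set is wider than the families named first.

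The study compared 3 libraries of U2OS cells stably expressing a short hairpin RNA against SQLE (shSQLE) with 3 libraries of U2OS cells expressing a scrambled hairpin (shControl). Both groups carried the pGIPZ lentiviral vector and had been selected with puromycin. The labels do not name the hairpin used and give no number of cell clones. They do not say that the libraries came from separate cultures, so the spread between libraries may be technical. According to the paper, the best of several hairpins was selected to silence SQLE in U2OS cells. Effects of that hairpin on other genes cannot be told apart from loss of SQLE. Poly(A) RNA was read as pairs of 151 bp, and the counts are per gene, so that spliced forms of FN1, TNC or VCAN cannot be told apart. In bulk RNA, fewer cells that express a gene and less RNA per cell cannot be told apart either.

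These proteins form and decorate the fibres between cells. Fibronectin is secreted as a dimer and drawn into fibrils by integrins on the cell surface, and fibrillin microfibrils, fibulins and nidogen link fibres and basement membranes. Tenascins, thrombospondins and versican bind to these structures and modulate how cells adhere and migrate. In bone and in osteosarcoma they are part of the matrix that mesenchymal cells lay down.

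SQLE had 1349, 1867 and 1924 normalized counts in the 3 shControl libraries, and 229, 204 and 219 in the 3 shSQLE libraries (counts scaled to the average of the TMM-adjusted library sizes). The silenced gene fell by 2.98 on the log2 scale (standard error 0.17, adjusted p = 0.000299 by the quasi-likelihood test of edgeR, with the Benjamini-Hochberg method over all genes), and its groups did not overlap. Totals ranged from 12212378 to 14393292 counts per library, and mitochondrial genes took 5.76% to 7.74% of them. One shControl library stood apart: the chi-square per degree of freedom between replicate 1 and the other shControl libraries was 51.3 and 60.8, against 2.76 to 15.2 for the other pairs within a group. The fold changes of the 10 genes, of the genes called in other lists and the counts of calls are therefore also given without it. Of 8 mesenchymal and osteoblast markers, 5 passed the filter on low counts and SP7, a defining osteoblast factor, had no count in any library, and ALPL and COL1A2 had at most 6 counts in a library. Of the 5, VIM, RUNX2, TWIST1 and CDH2 did not pass the threshold, with log2 fold changes of 0.17, -0.29, -0.18 and -0.48. COL1A1, which encodes a chain of the main collagen of bone, fell from 164 ± 6.64 normalized counts in shControl to 104 ± 4.13 in shSQLE (SD, n = 3 per group), with a log2 fold change of -0.65 (adjusted p = 0.0452, edgeR's quasi-likelihood test) and -0.63 without shControl replicate 1, the only library whose omission kept the call. This matrix gene and marker was lower in shSQLE, as were 8 of the 10 genes of the set, whereas 2 were higher. The part of COL1A1 in the results was not tested. Epithelial markers summed to between 48 and 76 counts per library, leukocyte markers to between 3 and 11 with PTPRC and CD3E at 0, and endothelial markers to 11 to 16 in shControl and 2 to 7 in shSQLE.

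The upstream sequence of FN1 is shown because FN1 had by far the largest difference in the set. RefSeq promoters (GRCh38.p14, 250 bases before the start of a transcript) were matched for 9 of the 10 genes, and 5 motifs were searched on both strands. The motifs were chosen after these promoters had been seen. The stretch below, chr2:215436069-215436268 on the minus strand, holds the 200 bases before the start, 5′ to 3′, with 3 of these motifs in capitals. ATATAA is the core of a TATA box. GGGCGG is the box of Gs and Cs that SP1 binds. TGACGTCA is a cAMP response element.
FN1: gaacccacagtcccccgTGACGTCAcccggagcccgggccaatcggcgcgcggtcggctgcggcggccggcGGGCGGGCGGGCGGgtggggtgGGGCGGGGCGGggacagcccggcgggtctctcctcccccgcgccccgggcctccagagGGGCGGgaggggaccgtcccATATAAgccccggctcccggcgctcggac

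The cAMP response element began 183 bases before the start of FN1, and the other 8 genes with a promoter entry did not have these letters, which 1.65% of 35116 promoters held. GGGCGG or its reverse complement CCGCCC matched 6 times before FN1, with some matches overlapping, and was present in 42.6% of promoters. ATATAA was found before 4 genes of the set, FN1, TNC, VCAN and THBS2, and in 7.63% of promoters. The part of this motif in the fold changes of these 4 genes was not tested. GGAATG or CATTCC, the letters bound by TEAD factors, was found before THBS1, THBS2 and FBN1 and in 11.9% of promoters. TGANTCA, an AP-1 site, was in 6.57% of promoters, and its letters were not in the windows of the 9 genes. A match of letters does not show that a factor binds there.

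All 10 genes passed the filter on low counts, and 8 of them were lower in shSQLE than in shControl. The median log2 fold change of the set was -0.65, against -0.01 over the 12450 genes tested, and single values ran from -2.88 for FN1 to 0.43 for THBS2. FN1 and TNC were below the whole-table threshold (adjusted p under 0.05, lower in shSQLE), 2 of the 10 genes, where 2.84% of all genes tested were called lower. None was called higher, where 0.369% of all genes were. DESeq2, the tool the study names, called 4 lower (FN1, TNC, FBN1 and EFEMP1) and 0 higher, against 4.01% and 1.14% of all genes. With the replicate number as a block, FN1, TNC and FBN1 were called lower and none higher, against 2.91% and 0.273% of all genes. With no filter on low counts the same 3 were called lower and none higher, against 2.26% and 0.275%. The groups did not overlap, with shSQLE lower, for 4 genes, FN1, TNC, FBN1 and EFEMP1 (12.1% of all genes tested), and with shSQLE higher for THBS2 (10.0% of all genes). Since the genes were chosen with this contrast known, nothing is read from these counts.

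**Figure D1:**
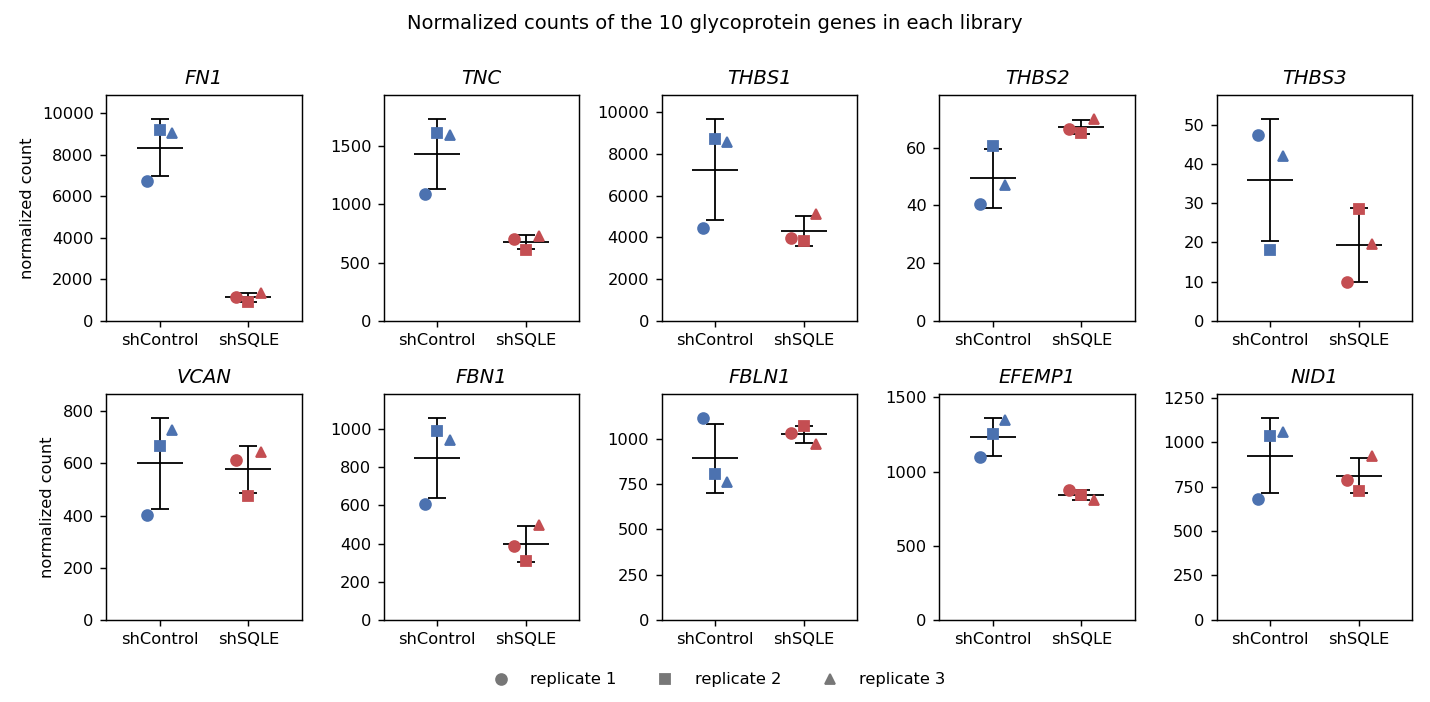
Normalized counts (vertical axes, from 0, each panel with its own range) of the 10 genes in the 3 shControl libraries (blue) and the 3 shSQLE libraries (red), with the mean and the SD as bars. FN1, TNC, FBN1 and EFEMP1 are lower in every shSQLE library than in any shControl library, and shControl replicate 1 (circle) is the lowest shControl library for 8 of the 10 genes.

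FN1 (ENSG00000115414) encodes fibronectin, the adhesive dimer that cells assemble into fibrils through integrin α5β1. The gene spans positions 215360440 to 215436073 of chromosome 2 (hg38, minus strand), with 46 exons and 8390 nt in the canonical transcript. It had 6745, 9189 and 9074 normalized counts in shControl replicates 1 to 3. It had 1132, 919 and 1350 normalized counts in shSQLE replicates 1 to 3. The lowest shControl library held several times the count of the highest shSQLE library. The means were 8336 ± 1379 and 1133 ± 215.5 (SD, n = 3 per group), so that shSQLE held 13.6% of the shControl level, with a log2 fold change of -2.88 (standard error 0.19). Of the 12450 genes tested, 35 had a lower log2 fold change than FN1. Without shControl replicate 1 the value was -3.01.

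FN1 was also the largest part of the set by counts in shControl. The 10 genes together took 0.115%, 0.187% and 0.188% of all counts in shControl replicates 1 to 3. They took 0.0696%, 0.0633% and 0.0838% in shSQLE replicates 1 to 3. FN1 made up between 37.6% and 41.5% of the counts of the 10 genes in shControl, and between 10.4% and 12.1% in shSQLE. The ratio of FN1 to THBS1 per kilobase of transcript, which needs no normalization between libraries, was 1.41, 0.979 and 0.985 in the shControl libraries and 0.264, 0.224 and 0.245 in the shSQLE libraries. The ratio of the 2 RNAs was higher in every shControl library than in any shSQLE library.

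TNC (ENSG00000041982) encodes tenascin C, a hexameric matricellular protein that binds fibronectin and is produced in developing bone and in tumour stroma. It lies on the minus strand of chromosome 9, from 115019575 to 115118207, with 28 exons and 8500 nt in the canonical transcript. Its normalized counts were 1085, 1612 and 1597 in shControl replicates 1 to 3, and 702, 611 and 725 in shSQLE replicates 1 to 3. All shSQLE libraries were below all shControl libraries, and shControl replicate 1 was the nearest to them. The means were 1432 ± 299.9 and 679 ± 60.1 (SD, n = 3 per group), and the log2 fold change was -1.08 (standard error 0.17), and 338 genes had a lower one. Without shControl replicate 1 the value was -1.24. When any other library was left out, TNC was no longer below the threshold, and since the gene was chosen with this contrast known, nothing is read from it. DELEC1, a noncoding RNA on the other strand, shares 129 exon bases with TNC.

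The thrombospondins are secreted glycoproteins of the same matricellular class. They bind cell surface receptors such as CD36 and CD47, calcium and growth factors. THBS1 and THBS2 form trimers and are known as inhibitors of vessel growth, and THBS3 forms pentamers and is found in skeletal tissue. The 3 genes did not share a pattern.

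THBS1 (ENSG00000137801, chromosome 15, plus strand, 39581079 to 39599466, 22 exons, 7789 nt) was the most abundant of them. Its normalized counts were 4453, 8712 and 8556 in shControl replicates 1 to 3. They were 3983, 3808 and 5125 in shSQLE replicates 1 to 3. The groups overlapped, since shControl replicate 1 lay below shSQLE replicate 3, and the other shControl libraries lay above every shSQLE library. The means were 7240 ± 2415 and 4305 ± 715 (SD, n = 3 per group), and the log2 fold change was -0.75 (standard error 0.25). Without shControl replicate 1 the value was -1.003. An exon of FSIP1, a gene on the other strand that is also in the table, shares 448 bases with exons of THBS1, and the antisense RNA THBS1-AS1 shares 411. Since the use of the strand in counting is not given in the sources used here, reads from these genes cannot be told apart there.

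THBS2 (ENSG00000186340, chromosome 6, minus strand, 169215780 to 169254050, 22 exons, 5701 nt) went the other way at a far lower count. It had 40.4, 60.6 and 47.1 normalized counts in shControl replicates 1 to 3, and 66.6, 65.0 and 69.9 in shSQLE replicates 1 to 3. All shSQLE libraries were above all shControl libraries, by a few counts at the nearest. The means were 49.4 ± 10.3 and 67.2 ± 2.47 (SD, n = 3 per group), and the log2 fold change was 0.43 (standard error 0.20), and 0.31 without shControl replicate 1. THBS2-AS1 on the other strand shares 2249 exon bases with it.

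THBS3 (ENSG00000169231, chromosome 1, minus strand, 155195588 to 155209051, 23 exons, 3145 nt) had the fewest counts of the set. Its deposited counts were 41, 20 and 43 in shControl replicates 1 to 3, and 10, 29 and 19 in shSQLE replicates 1 to 3. The groups overlapped, shSQLE replicate 2 lying above shControl replicate 2. The log2 fold change was -0.87 with the widest standard error of the set, 0.47, and -0.63 without shControl replicate 1. Its exons share 1198 bases with THBS3-AS1 and 146 with MTX1, both on the other strand.

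VCAN (ENSG00000038427) encodes versican, a large chondroitin sulfate proteoglycan that binds hyaluronan and makes the matrix around cells loose and hydrated. It lies on the plus strand of chromosome 5, from 83471618 to 83582303, with 15 exons and 12345 nt in the canonical transcript. Its normalized counts were 403, 667 and 729 in shControl replicates 1 to 3, and 613, 474 and 645 in shSQLE replicates 1 to 3. Each group spanned most of the other. The means were 599.7 ± 173 and 578 ± 91.0 (SD, n = 3 per group), and the log2 fold change was -0.06 (standard error 0.23). The sign was not stable, with -0.27 without shControl replicate 1 and 0.12 without shControl replicate 3. VCAN-AS1 on the other strand shares 453 exon bases with VCAN.

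FBN1 (ENSG00000166147) encodes fibrillin 1, the main protein of the microfibrils on which elastin is laid down and on which latent TGF-β is stored. It lies on the minus strand of chromosome 15, from 48408313 to 48645721, with 66 exons and 11609 nt in the canonical transcript. It had 605, 990 and 943 normalized counts in shControl replicates 1 to 3, and 387, 307 and 496 in shSQLE replicates 1 to 3. All shSQLE libraries were below all shControl libraries, with shControl replicate 1 the nearest again. The means were 846 ± 210.0 and 397 ± 95.3 (SD, n = 3 per group), so that shSQLE held 46.9% of the shControl level. The log2 fold change was -1.09 (standard error 0.24), close to that of TNC, and -1.29 without shControl replicate 1.

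The fibulins are short rod-shaped proteins with calcium-binding EGF modules that bridge elastic fibres, fibronectin and basement membranes. The 2 members of the set differed in direction. EFEMP1 (ENSG00000115380, fibulin 3, chromosome 2, minus strand, 55865967 to 55924139, 12 exons, 2708 nt) had 1099, 1251 and 1348 normalized counts in shControl replicates 1 to 3, and 874, 845 and 807 in shSQLE replicates 1 to 3. The groups did not overlap and the spread within each was small. The means were 1233 ± 125 and 842 ± 33.9 (SD, n = 3 per group), and the log2 fold change was -0.55 (standard error 0.12), and -0.63 without shControl replicate 1. FBLN1 (ENSG00000077942, fibulin 1, chromosome 22, plus strand, 45502238 to 45601135, 17 exons, 2904 nt) had 1112, 803 and 758 normalized counts in shControl replicates 1 to 3, and 1031, 1068 and 970 in shSQLE replicates 1 to 3. Here shControl replicate 1 was the highest of all 6 libraries and the other shControl libraries were the lowest, so that the groups overlapped. The log2 fold change was 0.20 (standard error 0.16), and 0.39 without shControl replicate 1.

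NID1 (ENSG00000116962, chromosome 1, minus strand, 235975830 to 236065109, 20 exons, 5792 nt) encodes nidogen 1, which links laminin and collagen IV in basement membranes. Its normalized counts were 680, 1033 and 1056 in shControl replicates 1 to 3, and 787, 727 and 920 in shSQLE replicates 1 to 3. All shSQLE libraries lay between shControl replicate 1 and the other shControl libraries. The means were 923 ± 211 and 812 ± 98.5 (SD, n = 3 per group), and the log2 fold change was -0.19 (standard error 0.19), and -0.36 without shControl replicate 1.

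**Figure D2:**
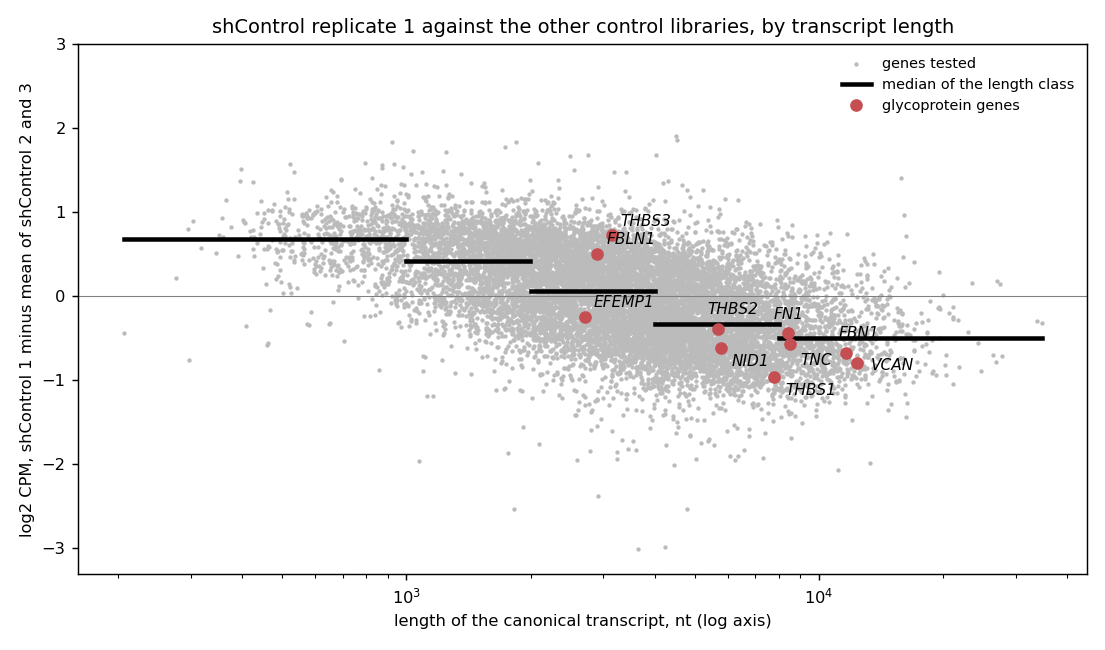
Log2 CPM (counts scaled to library size) of shControl replicate 1 minus the mean of shControl replicates 2 and 3 (vertical axis) against the length of the canonical transcript in nt (horizontal log axis), for all genes tested (grey), the median of each length class (black lines) and the 10 genes (red). The medians run from 0.68 under 1 kb to -0.50 at 8 kb and over, and THBS1 lies lowest of the 10 genes, at -0.95.

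The library that stood apart differed from the other shControl libraries along transcript length. Over all genes tested, its median log2 difference from the mean of the other shControl libraries was 0.68 for transcripts under 1 kb, 0.06 for those of 2 to 4 kb and -0.50 for those of 8 kb and over. The 10 genes are long: their median canonical length was 6790 nt, against 3433 nt for all genes tested, and 7 of the 10 were longer than that. Of the 7 long genes, all were lower in shControl replicate 1, from -0.39 for THBS2 to -0.95 for THBS1. Of the 3 shorter genes, EFEMP1 was at -0.24, and FBLN1 and THBS3 were higher, at 0.51 and 0.73. Between the groups, the median log2 fold change was 0.09 under 1 kb and -0.12 at 8 kb and over with all libraries, and 0.35 and -0.27 without shControl replicate 1. The log2 fold changes given without that library therefore stand beside a larger trend with length, and its part in them was not tested.

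Without shControl replicate 1, 6 of the 10 genes were called lower (FN1, TNC, THBS1, FBN1, EFEMP1 and NID1), and 18.3% of all genes tested were. FBLN1 was called higher in that fit, as were 15.6% of all genes. With smooth offsets for transcript length and GC content in each library, 5 were called lower (FN1, TNC, THBS1, FBN1 and EFEMP1), against 8.67% of all genes, and FBLN1 was called higher, against 12.1%. In this fit the log2 fold change was -2.74 for FN1, -0.95 for FBN1, -0.93 for TNC, -0.59 for THBS1 and -0.51 for EFEMP1, each somewhat nearer 0 than without offsets. It was 0.12 for VCAN, the gene whose sign the fit turned. The direction of the other 9 genes was the same in the fit to all libraries, without shControl replicate 1 and with the offsets.

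**Figure D3:**
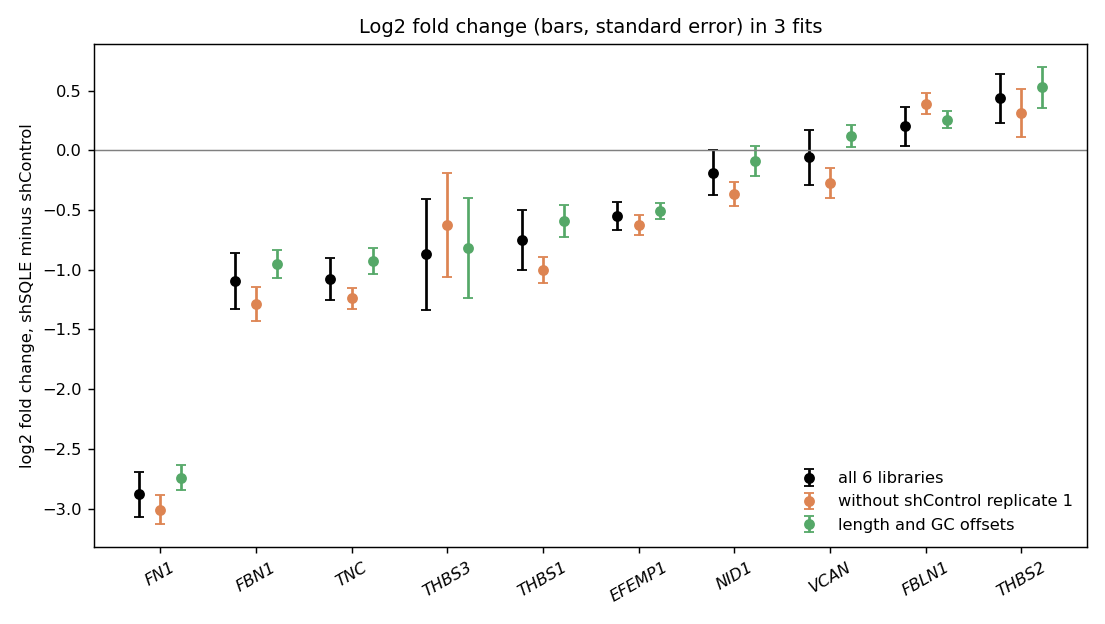
Log2 fold change, shSQLE minus shControl (vertical axis), of the 10 genes in the fit to all 6 libraries (black), without shControl replicate 1 (orange) and with offsets for transcript length and GC content (green), with the standard error as bars. FN1 lies between -3.01 and -2.74 in the 3 fits, and VCAN is the only gene on both sides of 0.

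Levels were compared between genes as TPM, which divides the counts by the length of the canonical transcript and scales each library to the same total. In shControl the order of the mean levels was FN1 (147 TPM), THBS1 (139.6), EFEMP1 (67.0), FBLN1 (43.9), TNC (25.0), NID1 (23.7), FBN1 (10.9), VCAN (7.27), THBS3 (1.63) and THBS2 (1.28). Neighbours whose ranges over the libraries overlapped were FN1 and THBS1, THBS1 and EFEMP1, TNC and NID1, FBN1 and VCAN, and THBS3 and THBS2. Within each shControl library, THBS1 was above EFEMP1, TNC above NID1 and FBN1 above VCAN. The order of FN1 and THBS1, and that of THBS3 and THBS2, differed between the shControl libraries. FN1 was above 92.4% of the genes tested and THBS2 above 7.89%. In shSQLE the order was THBS1 (77.0 TPM), FBLN1 (48.6), EFEMP1 (42.9), NID1 (19.5), FN1 (18.8), TNC (11.1), VCAN (6.51), FBN1 (4.78), THBS2 (1.63) and THBS3 (0.844). FN1 thus stood in the fifth place, overlapping with NID1, and VCAN overlapped with FBN1, whereas the other neighbours did not overlap. VCAN was above FBN1 within each shSQLE library, and the order of NID1 and FN1 differed between the shSQLE libraries. The order rests on the length used: with the union of all exons, THBS1 came first in shControl at 202 TPM and FN1 next at 122.

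**Figure D4:**
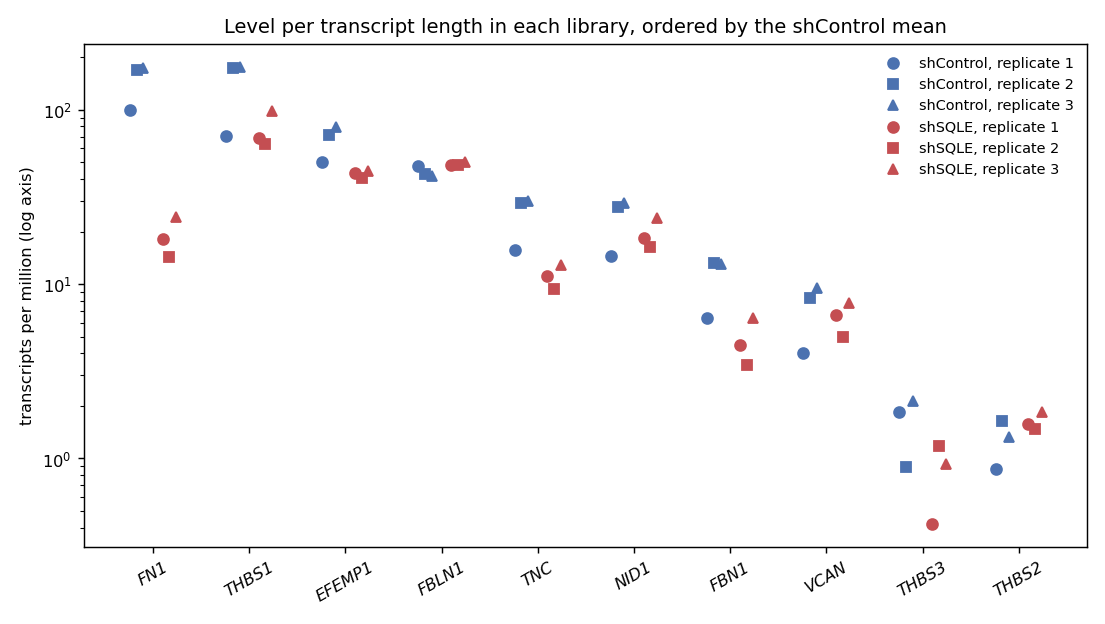
Level in TPM (vertical log axis) of the 10 genes in each of the 6 libraries, shControl in blue and shSQLE in red, ordered by the shControl mean. Levels run from 147 TPM for FN1 to 1.28 TPM for THBS2 in shControl, and FN1 lies between 14.2 and 24.1 TPM in the shSQLE libraries.

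The genes whose profile over the 6 libraries was nearest to that of FN1, by the root mean square difference of log2 CPM centred on the mean, were PTGS2 (0.14), SQLE itself (0.141), CSGALNACT1 (0.153), ANXA10 (0.184) and ABCA1 (0.185). PTGS2, which encodes the inducible cyclooxygenase, had 1179, 1811 and 1845 normalized counts in shControl replicates 1 to 3 and 228, 174 and 208 in shSQLE replicates 1 to 3. ABCA1, the transporter that exports cholesterol from cells, had 202, 364 and 413 normalized counts in the shControl libraries and 45.0, 36.5 and 50.4 in the shSQLE libraries. CSGALNACT1, an enzyme that starts chondroitin sulfate chains, and ANXA10, an annexin, had between 2 and 6 deposited counts in each shSQLE library, so that their likeness to FN1 rests on few counts. No other gene of the set was near: for FBN1 the difference was 0.903, with 245 genes nearer to FN1, and for TNC 0.918, with 255. The profiles were centred but not scaled, so that this difference largely follows the size of the fold change. On the log2 scale that was -2.879 for FN1, -2.988 for PTGS2 and -2.978 for SQLE, against -1.095 for FBN1 and -1.076 for TNC.

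The matrix genes outside the set were taken from 4 lists written by function, and these were tested in the fit over all 12450 genes. Among the families' relatives (other tenascins, thrombospondins, fibrillins, fibulins, latent TGF-β binding proteins, hemicentins, nidogen 2 and lecticans), 13 of 21 passed the filter, 9 of these were lower, and the median log2 fold change was -0.16. NID2, the paralog of NID1, was called lower and no relative was called higher, where 2.84% and 0.369% of all genes tested were. At an unadjusted p under 0.05 the counts were 4 lower and 1 higher, where 9.89% of all genes tested were lower and 4.83% higher. NID2 had 95.8, 126.6 and 129.5 normalized counts in shControl replicates 1 to 3 and 48.0, 32.5 and 41.1 in shSQLE replicates 1 to 3. It fell by 1.53 on the log2 scale (standard error 0.21, adjusted p = 0.00987, edgeR's quasi-likelihood test), without overlap (-1.66 without shControl replicate 1), and lost the call without shSQLE replicate 2 or 3. The number of relatives called lower was 4 without shControl replicate 1, where 18.3% of all genes were, and 0 without shSQLE replicate 2 or 3. Over all genes tested, 104 were called lower without shSQLE replicate 2 and 101 without shSQLE replicate 3, against 354 with all libraries.

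The other matrix glycoproteins held 24 genes of 33 past the filter, of which 15 were lower. Their median log2 fold change was -0.15, and 4 were called lower and 2 higher, where 2.84% and 0.369% of all genes tested were. At an unadjusted p under 0.05 the counts were 9 lower and 3 higher, against 9.89% and 4.83% of all genes. CCN3, a matricellular protein of the CCN family, fell from 143 ± 29.1 normalized counts in shControl to 23.9 ± 6.82 in shSQLE (SD, n = 3 per group), and the log2 fold change was -2.57 (adjusted p = 0.00238, edgeR's quasi-likelihood test). LGALS3 (galectin 3, -0.86), TGFBI (an integrin-binding protein induced by TGF-β, -0.53) and SMOC1 (a calcium-binding protein related to SPARC, -0.55) fell too. Their adjusted p was 0.0264, 0.0380 and 0.0498 in edgeR's quasi-likelihood test. CCN1 and CCN2, of the same family as CCN3 and known as early targets of YAP and TEAD, rose by 0.70 and 0.52 on the log2 scale (adjusted p = 0.00968 and 0.0350, edgeR's quasi-likelihood test). CCN1 went from 2682 ± 47.5 to 4358 ± 280 normalized counts and CCN2 from 2985 ± 221 to 4291 ± 153 (SD, n = 3 per group), both without overlap, so that the RNAs of 3 genes of the CCN family did not share a direction. CCN3 kept its call in all 6 fits that left out 1 library, CCN1 in 3, LGALS3 in 2, and CCN2, TGFBI and SMOC1 only without shControl replicate 1. Without that library the log2 fold change was -2.69 for CCN3, -0.71 for LGALS3, -0.45 for TGFBI, -0.49 for SMOC1, 0.71 for CCN1 and 0.46 for CCN2. The list had 8 genes called lower and 4 higher without shControl replicate 1, where 18.3% and 15.6% of all genes tested were. It had 1 lower and 0 higher without shControl replicate 2, shSQLE replicate 1 or shSQLE replicate 2, 2 lower and 1 higher without shControl replicate 3, and 1 lower and 1 higher without shSQLE replicate 3. Over all genes tested, 354 were called lower and 46 higher with all libraries. These numbers were 154 and 9 without shControl replicate 2, and 198 and 13 without shControl replicate 3. Without shSQLE replicates 1, 2 and 3 in turn they were 105 and 4, 104 and 5, and 101 and 8.

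Of the cell surface receptors for these proteins, 16 of 20 passed the filter, 11 were lower, and the median log2 fold change was -0.21. SDC2, the heparan sulfate proteoglycan syndecan 2, was called lower, and none was called higher, where 2.84% and 0.369% of all genes tested were. At an unadjusted p under 0.05 the counts were 6 lower and 1 higher, against 9.89% and 4.83% of all genes tested. SDC2 fell from 193 ± 18.2 normalized counts in shControl to 109 ± 4.86 in shSQLE (SD, n = 3 per group), with a log2 fold change of -0.82 (adjusted p = 0.0232, edgeR's quasi-likelihood test). It lost the call when any library other than shControl replicate 1 was left out. Without shControl replicate 1, SDC2 was at -0.90, and 7 receptors were called lower and 2 higher, where 18.3% and 15.6% of all genes were. The subunits of the fibronectin receptor were picked after their values had been seen. ITGA5 had a log2 fold change of -0.46 (standard error 0.12) and ITGB1 of 0.06 (standard error 0.28), and neither passed the threshold (adjusted p = 0.0945 and 0.955, edgeR's quasi-likelihood test). ITGB1 counts were 3356, 6970 and 7348 in shControl replicates 1 to 3, so that replicate 1 lay far below the others. ITGA9, also picked after its values had been seen, was at 1.67 with fewer than 30 normalized counts in every library (adjusted p = 0.0751, edgeR's quasi-likelihood test).

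Among assembly partners and proteases, the enzymes and binding proteins that build, crosslink or cut these fibres, 15 of 21 passed the filter. All 15 had a log2 fold change below 0, from -1.33 to -0.11, with a median of -0.42, where 51.6% of all genes tested were below 0. Of the 15, 4 were called lower and 0 higher, against 2.84% and 0.369% of all genes. MMP2, a gelatinase that also cuts fibronectin, fell from 477 ± 33.1 normalized counts in shControl to 198 ± 14.6 in shSQLE (SD, n = 3 per group), and its log2 fold change was -1.27 (adjusted p = 0.00259, edgeR's quasi-likelihood test). TGM2, a transglutaminase that crosslinks fibronectin, fell from 187 ± 12.1 normalized counts in shControl to 93.5 ± 6.33 in shSQLE, a difference of -0.999 on the log2 scale. THSD4, which promotes the assembly of fibrillin 1 into microfibrils, fell from 419 ± 92.2 normalized counts in shControl to 167 ± 36.0 in shSQLE, a difference of -1.33 on that scale. LOX, the lysyl oxidase that crosslinks collagen and elastin, fell from 316 ± 53.3 normalized counts in shControl to 175 ± 23.2 in shSQLE, a difference of -0.85. The adjusted p of TGM2, THSD4 and LOX was 0.0105, 0.0202 and 0.0442 in edgeR's quasi-likelihood test. The groups did not overlap, with shSQLE lower, for 7 of the 15 genes, among them the 4 called (12.1% of all genes tested). MMP2 kept its call in all 6 fits that left out 1 library and TGM2 in those without shControl replicate 1 or 3, whereas THSD4 and LOX kept it only without shControl replicate 1. The number called lower was 8 without shControl replicate 1, where 18.3% of all genes were. It was 2 without shControl replicate 3, and 1 without any of the other 4 libraries. Over all genes tested, lower calls fell too, from 354 with all libraries to 198 without shControl replicate 3. They numbered 101 to 154 without any of the other 4 libraries. Without shControl replicate 1 the log2 fold change was -1.22 for MMP2, -0.95 for TGM2, -1.50 for THSD4 and -0.98 for LOX. At an unadjusted p under 0.05, 7 were lower and 0 higher, against 9.89% and 4.83% of all genes.

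**Figure D5:**
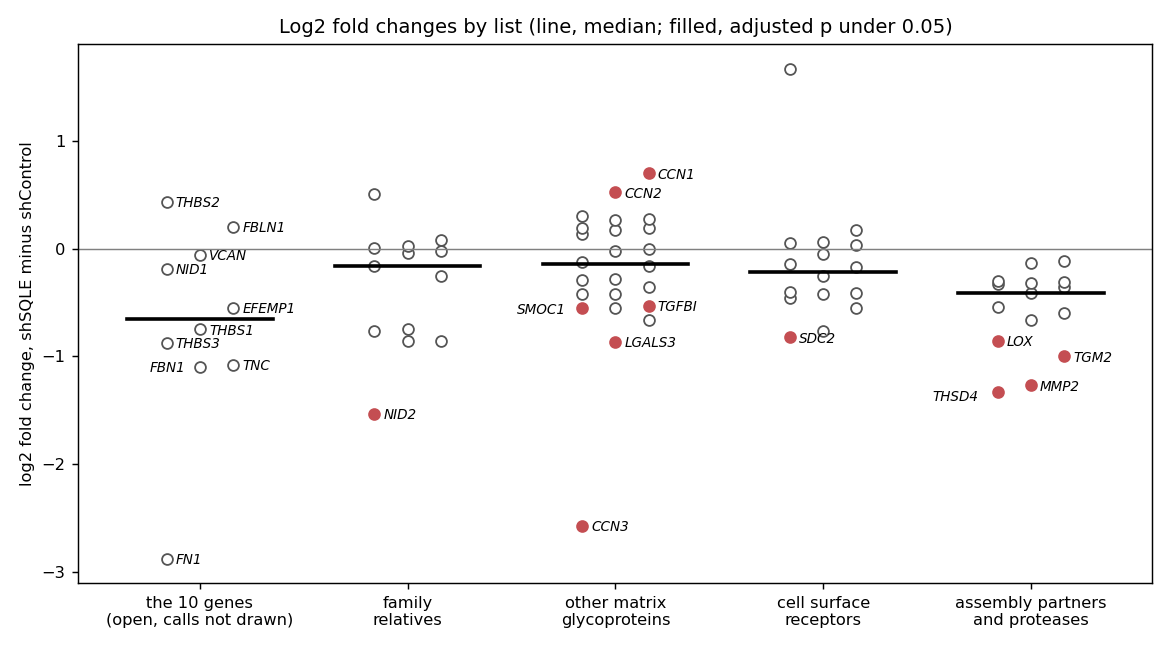
Log2 fold change, shSQLE minus shControl (vertical axis), of the 10 genes (open circles, named, their calls not drawn) and of the genes tested in 4 further lists, with the median of each as a line. In the 4 lists, filled circles are the genes with an adjusted p under 0.05, 6 of them in the list of other matrix glycoproteins, and the medians run from -0.65 for the 10 genes to -0.15.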

How the data were processed

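Poly(A) RNA of 3 shSQLE and 3 shControl libraries was sequenced. According to the submitters' processing notes and the study's methods, the authors used fastp 0.20.0 for trimming, STAR 2.7.9a for alignment to hg38 and featureCounts 2.0 for counting, and deposited raw counts for each gene. The annotation release, use of the strand and treatment of multi-mapping reads are not given in the sources used here. Of 19937 identifiers, 19905 were found in a table of gene symbols.

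Counts were analysed in R 4.3.3 with edgeR 4.0.16 (filterByExpr, TMM, quasi-likelihood test, condition as the only term, Benjamini-Hochberg adjustment at 0.05), which left 12450 genes. The script was tested on simulated data. Standard errors of fold changes were taken from the F statistic. Alternatives were DESeq2 1.42.0 (the tool the study names), median-of-ratios size factors, no normalization beyond library size, no filter or a stricter one, a replicate block, leaving out each library, a fold threshold, and smooth offsets for transcript length and GC content (mgcv 1.9.3). Coordinates, exons and lengths were those of GENCODE v44 on hg38, and the promoters those of RefSeq.

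The 10 genes, the other lists and the motifs were chosen with earlier results of these data known, so that no list is independent evidence of its direction. The genes named are the 10, SQLE, the genes of each list past the adjusted p (at most 6) and the 5 nearest to FN1. Markers of the labelled cells, and ITGA5, ITGB1 and ITGA9, were named outside this rule, the last 3 after their values had been seen.

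With totals from 12212378 to 14393292 counts, precision was limited by counting only for genes such as THBS2 and THBS3. Each library counted as a replicate, and p-values set the difference between the groups against the spread between these libraries. For each gene that spread was estimated partly from all genes tested.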

Additional observations from a re-analysis of the deposited data

How the results depend on the processing

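Genes called lower and higher numbered 354 and 46 in edgeR, 556 and 158 in DESeq2, and 1079 and 1504 with offsets for transcript length and GC content. In edgeR, 261 genes were lower and 10 higher past the study's fold threshold too. Leaving out 1 library gave 101 to 2300 lower and 4 to 1964 higher, the highest of both without shControl replicate 1. As shares of all genes tested, lower and higher calls were 8.67% and 12.1% with the offsets. They were 18.3% and 15.6% without shControl replicate 1, and 4.01% and 1.14% in DESeq2. For the lists, family relatives called lower numbered 1, and 3 in DESeq2, 2 with library size only, 2 with no filter, 3 with the offsets and 0 to 4 without 1 library, and 1 was higher with the offsets. Other matrix glycoproteins numbered 4 lower and 2 higher, 8 and 4 with the offsets, 1 higher with library size only, and 1 to 8 lower and 0 to 4 higher without 1 library. Receptors numbered 1 lower and 0 higher, 3 and 1 in DESeq2, 2 lower with library size only, 5 and 3 with the offsets, and 0 to 7 lower and 0 to 2 higher without 1 library. Assembly partners numbered 4 lower, and 1 to 8 without 1 library. The cause of these changes was not tested. The median level of the 10 genes in shControl was 24.4 TPM, and 33.9 TPM with the union of exons as length.

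The replicate numbers were not shown to pair the libraries: the correlation of deviations was 0.138, -0.433 and 0.543 for numbers 1, 2 and 3, and shControl replicate 1 correlated best with shSQLE replicate 2 (0.542). With a replicate block, 362 genes were lower and 34 higher, of which 2 family relatives were lower, and 2 other matrix glycoproteins were lower and 1 higher. CCN2, TGFBI, SMOC1 and LOX lost their call. The log2 fold change of SQLE ran from -3.12 to -2.88 and the median of the 10 genes from -0.70 to -0.53 over all alternatives. The sign of VCAN was the only one among the 10 genes to turn. Groups of 3 libraries limit every statement on spread.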
